A study of Homo sapiens with 12 samples.

Results

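The subunits of oxidative phosphorylation were followed in a pair of human melanoma cell lines treated with a BRAF inhibitor. The members were taken by symbol: protein-coding genes beginning with MT-ND, MT-CO, MT-ATP, NDUFA, NDUFB, NDUFC, NDUFS, NDUFV, UQCR, ATP5 or COX4 to COX8, together with MT-CYB, SDHA, SDHB, SDHC, SDHD and CYC1, without the NDUFAF and UQCC factors. This gave 104 of the 33694 human genes listed, 13 encoded in the mitochondrial genome and 91 in the nucleus. All 13 mitochondrially encoded members and 80 of the nuclear-encoded members passed the filter on low counts.

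A375 is a long-used melanoma cell line that carries an activated BRAF, and A375-BIR is labelled as resistant to BRAF inhibitors. The groups were A375-BIR with dabrafenib at 200 nM, A375-BIR with the solvent DMSO at 0.1%, A375 with dabrafenib at 200 nM and A375 with DMSO at 0.1%, each for 48 h in RPMI with 10% serum. Dabrafenib blocks the BRAF kinase. RNA was measured by sequencing tags from the 3′ end of polyadenylated transcripts, in 3 libraries per group that the labels call biological replicates. How A375-BIR was made, and whether it is 1 clone, is not stated in the sources used here.

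Replicates 2 and 3 of A375 with DMSO come with mouse gene identifiers and were not analysed here, so A375 DMSO stands on 1 library. It also carries another stamp than the other 9 libraries used, and replicates 2 and 3 of its group carry the same stamp as it. The stamp is a string of digits in the deposited names, and what it marks is not stated. In comparisons with this library, stamp, library and group cannot be told apart. Depth ran from 198690 to 1999840 gene counts. The third dabrafenib library of each line had the lowest total of its line, the lowest share of its file's reads on genes (20.4% in A375-BIR and 21.1% in A375) and the highest share of counts on the nuclear RNA MALAT1 (5.78% and 8.60%). The melanocyte lineage list, 10 genes chosen as markers of the cell type, summed to 249 to 334 CPM in A375-BIR with dabrafenib, with PMEL, MLANA and TYR at 0. It summed to 216 to 225 CPM in A375-BIR with DMSO, with MLANA and TYR at 0. In A375 with dabrafenib it summed to 2877 to 3421 CPM with all 10 genes detected, and in A375 with DMSO to 1503 CPM, with MLANA and TYRP1 at 0. The 8 fibroblast markers summed to at most 30.4 CPM and the 8 leukocyte and erythroid markers to at most 45.8 CPM in any library. CPM is gene counts scaled to a common total (1e6) after TMM scaling, which evens out composition between libraries.

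Oxidative phosphorylation couples the transfer of electrons through complexes I to IV of the inner mitochondrial membrane to proton pumping, and complex V uses the proton gradient to make ATP. The mitochondrial genome encodes 13 of the subunits, in complexes I, III, IV and V, while complex II is wholly nuclear-encoded. Mitochondrial mRNAs are cut from long transcripts of both strands, and the nuclear and mitochondrial genomes are transcribed by different polymerases.

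The assay takes tags from the 3′ end of polyadenylated transcripts. The last 30 annotated bases of mitochondrial mRNAs on which the results turn are therefore shown. They follow the GENCODE 29 annotation of GRCh38 on the coding strand, and where the tags lay was not examined. Whether each transcript, MT-ND6 among them, carries a poly(A) tail at its annotated end was not examined either. Capitals mark the stop codon, or the part of it that the genome encodes.
MT-ND1 (chrM, 3307 to 4262, plus strand): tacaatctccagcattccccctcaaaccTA
MT-ND3 (chrM, 10059 to 10404, plus strand): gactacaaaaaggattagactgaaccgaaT
MT-ND4 (chrM, 10760 to 12137, plus strand): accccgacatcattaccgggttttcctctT
MT-CYB (chrM, 14747 to 15887, plus strand): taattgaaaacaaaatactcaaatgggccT
MT-CO2 (chrM, 7586 to 8269, plus strand): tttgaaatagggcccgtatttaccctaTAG
MT-CO3 (chrM, 9207 to 9990, plus strand): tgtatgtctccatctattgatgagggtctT
MT-ATP6 (chrM, 8527 to 9207, plus strand): gtaagcctctacctgcacgacaacacaTAA
MT-ND6 (chrM, 14149 to 14673, minus strand): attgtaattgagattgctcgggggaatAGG
Of the 13 genes, 6 end in an incomplete stop of 1 or 2 bases, which the poly(A) tail completes, and 7 end in a complete one. MT-ND6 is the only member on the minus strand of chrM in this annotation. MT-ATP8 overlaps MT-ATP6 by 46 bases, MT-ND4L overlaps MT-ND4 by 7, and MT-ATP6 overlaps MT-CO3 by 1, so counts within these pairs are uncertain. The strand setting of the counting is not given in the sources used here, and without it reads from the antisense side of MT-ND6 cannot be told apart from its own.

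Under dabrafenib, the mitochondrially encoded members summed to less in A375-BIR than in A375, while the nuclear-encoded members did not show such a gap. With dabrafenib, the 13 mitochondrially encoded genes summed to 46975, 47132 and 71799 CPM in A375-BIR, against 106944, 111953 and 165933 CPM in A375. The 91 nuclear-encoded genes summed to 11348, 11897 and 7974 CPM in A375-BIR with dabrafenib, against 10532, 9971 and 7767 CPM in A375 with dabrafenib. The mitochondrial sums of the lines did not overlap, and the nuclear sums did. The ratio of the mitochondrial to the nuclear sum was 4.14, 3.96 and 9.004 in A375-BIR with dabrafenib, against 10.2, 11.2 and 21.4 in A375 with dabrafenib.

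In DMSO the mitochondrial sum was 42501, 51319 and 51380 CPM in A375-BIR, against 186203 CPM in the single A375 library. The nuclear sum was 12382, 11041 and 13881 CPM in A375-BIR with DMSO, against 16194 CPM in A375 with DMSO. In CPM after TMM scaling, the A375 DMSO library was thus above the other 9 in both sums. As a share of gene counts, without that scaling, its mitochondrial sum was 15.08%, beside 15.06% in the third library of A375 with dabrafenib. Its nuclear sum was then 1.31%, below the 1.35% and 1.44% of replicates 1 and 3 of A375-BIR with DMSO. The ratio of the A375 DMSO library, 11.5, lay among those of A375 with dabrafenib, and A375-BIR with DMSO had 3.43, 4.65 and 3.70. In these bulk samples, fewer cells of a kind and less RNA per cell cannot be told apart. A sum over members was given no test.

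**Figure D1:**
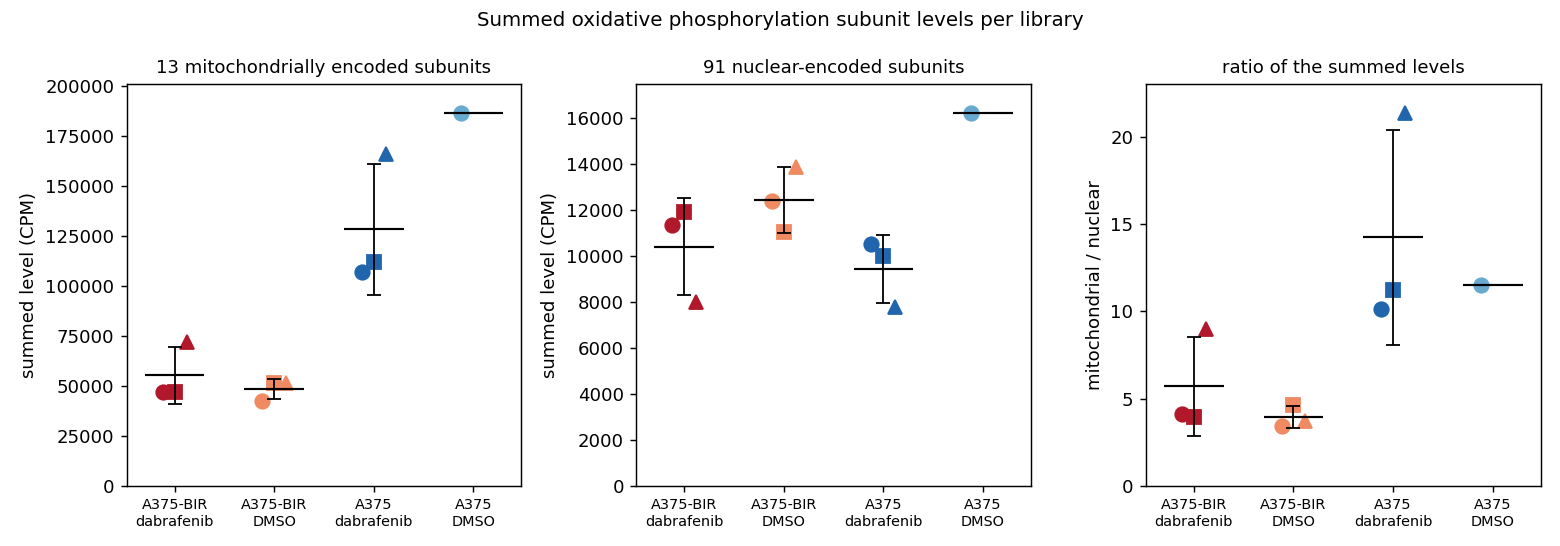
Summed levels per library, in CPM, of the 13 mitochondrially encoded subunits (left) and the 91 nuclear-encoded subunits (middle), and their ratio (right), by group. Circles, squares and triangles are replicates 1, 2 and 3, lines are group means and bars are SD (n = 3, and 1 for A375 with DMSO). The triangles of both dabrafenib groups have the highest mitochondrial and the lowest nuclear sum of their group.

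The third dabrafenib library of each line had the highest mitochondrial and the lowest nuclear sum of its group. These are the libraries with low totals and high MALAT1 noted above, and the part of those features in the sums was not tested. Without them, the mitochondrial sums with dabrafenib were 46975 and 47132 CPM in A375-BIR, against 106944 and 111953 CPM in A375. These features also differed between the lines in the libraries left. Replicates 1 and 2 of A375 with dabrafenib had 5.08% and 5.68% of counts on MALAT1, and those of A375-BIR with dabrafenib 2.36% and 3.94%. Their reads on genes were 24.3% and 23.4% in A375, against 27.7% and 28.6% in A375-BIR. Their totals were 493398 and 463378 gene counts in A375, against 971347 and 560878 in A375-BIR. The part of this in the gap between the lines was not tested.

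The lines were first compared under dabrafenib, since those 6 libraries share a stamp. All tests used edgeR's quasi-likelihood test over 10236 genes, and calls were made where the p adjusted after Benjamini and Hochberg was under 0.05. Of the 13 mitochondrially encoded members, 12 were called lower in A375-BIR, against 20.2% of all genes tested called lower and 42.7% called in either direction. Their median log2 difference was -1.20, beside 0.04 for all genes. In 11 of the 13 the libraries of the lines did not overlap, each time with A375-BIR below, against 22.7% of all genes. Of the 80 nuclear-encoded members tested, 13 were called higher and 8 lower in A375-BIR, against 22.6% and 20.2% of all genes, with a median of 0.18.

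Complex I takes electrons from NADH, and 7 of its subunits are mitochondrially encoded. MT-ND4, which forms part of its proton-pumping membrane arm, had 9298, 10297 and 14324 CPM in A375-BIR with dabrafenib, against 24080, 25368 and 39519 CPM in A375 with dabrafenib. Each A375 library lay above each A375-BIR library, and the log2 difference was -1.39 ± 0.26 (SE, adjusted p = 2.97e-05). MT-ND5 had 4644, 2853 and 6131 CPM in A375-BIR with dabrafenib, against 10382, 11167 and 14143 CPM in A375 with dabrafenib, a log2 difference of -1.39 ± 0.24 (adjusted p = 1.11e-05). MT-ND3 had 2754, 3023 and 4589 CPM in A375-BIR with dabrafenib, against 5649, 6087 and 8959 CPM in A375 with dabrafenib, a log2 difference of -0.997 ± 0.22 (adjusted p = 4.18e-04). Both genes were also apart in all 6 libraries. MT-ND4L and MT-ND2 were lower in A375-BIR by log2 differences of -1.16 ± 0.20 and -0.82 ± 0.24 (adjusted p = 1.03e-05 and 0.00530).

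MT-ND1 and MT-ND6, also subunits of complex I, were the mitochondrially encoded members whose libraries overlapped between the lines. MT-ND1 had 1990, 3056 and 3680 CPM in A375-BIR with dabrafenib, against 3603, 3792 and 5444 CPM in A375 with dabrafenib. The groups overlapped by a single pair of libraries, and the log2 difference of -0.56 ± 0.21 was called (adjusted p = 0.0342). MT-ND6 had 579, 461 and 982 CPM in A375-BIR with dabrafenib, against 616, 639 and 1131 CPM in A375 with dabrafenib. It was the only mitochondrially encoded member not called, with overlapping groups and a log2 difference of -0.22 ± 0.24 (adjusted p = 0.482). The call of MT-ND1 was lost without the first A375-BIR or the third A375 dabrafenib library, and over all libraries left out in turn it ranged from -0.76 to -0.34. Without the third A375 dabrafenib library MT-ND2 was not called (-0.56) and MT-ND6 turned to 0.08.

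The 6 mitochondrially encoded members of complexes III, IV and V were all called lower. MT-CYB, the cytochrome b of complex III, had 4046, 4004 and 6134 CPM in A375-BIR with dabrafenib, against 10284, 10952 and 16655 CPM in A375 with dabrafenib. Its groups were apart, with a log2 difference of -1.42 ± 0.23 (adjusted p = 5.10e-06). MT-CO2, which carries the copper centre that receives electrons from cytochrome c, had 2016, 2765 and 3247 CPM in A375-BIR with dabrafenib, against 6539, 6471 and 9264 CPM in A375 with dabrafenib. The difference was -1.47 ± 0.22 (adjusted p = 9.99e-07), about the same size as that of MT-CYB. MT-CO1 and MT-CO3, the other mitochondrially encoded core subunits of complex IV, differed by -1.20 ± 0.21 and -1.20 ± 0.23 (adjusted p = 1.32e-05 and 5.39e-05). In complex V, MT-ATP6, part of the proton channel, had 4826, 3422 and 6571 CPM in A375-BIR with dabrafenib, against 11657, 12080 and 17758 CPM in A375 with dabrafenib. Its log2 difference was -1.49 ± 0.24 (adjusted p = 4.44e-06), and that of MT-ATP8 was -1.01 ± 0.23 (adjusted p = 4.65e-04).

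**Figure D2:**
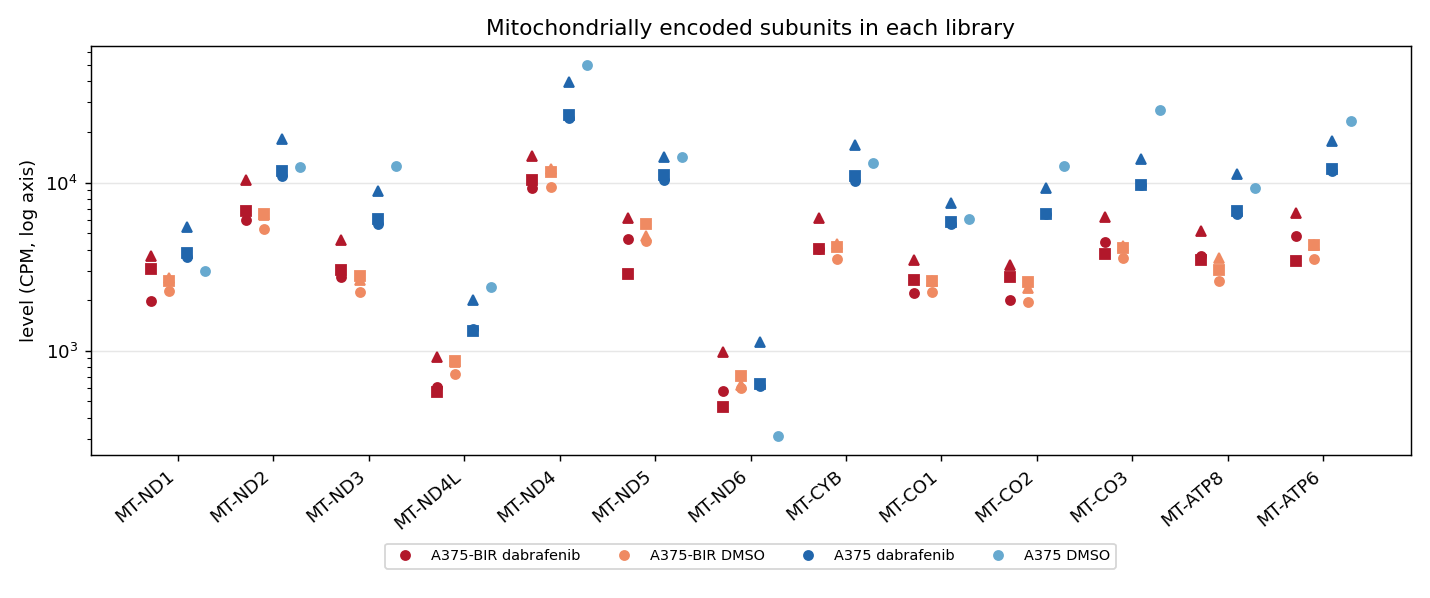
Level of each mitochondrially encoded subunit gene in each library, in CPM on a log axis, by group. Circles, squares and triangles are replicates 1, 2 and 3. For 11 of the 13 genes each A375 dabrafenib library lies above each A375-BIR dabrafenib library, and for MT-ND6 the A375 DMSO library lies below the other 9.

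Scaling the libraries by genes outside the mitochondrial genome left the same 12 mitochondrially encoded calls, and dropping the composition factor left 11 of them. Without replicate 3 of both dabrafenib groups the same 12 were called, with a median log2 difference of -1.24. The melanocyte markers also differed between the lines, as given above, and their part in this difference was not tested.

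Of the 80 nuclear-encoded members tested, 26.25% were called in either direction between the lines under dabrafenib, beside 42.7% of all genes. Those called went in both directions, in complexes I and IV within the same complex. In complex V, 6 of 18 tested members were called higher in A375-BIR and none lower; DESeq2 called 5 higher and 0 lower, and 7 of the 18 had an unadjusted p under 0.05, beside 49.9% of all genes. In complex I, 6 of 37 were higher and 5 lower, in complex IV 1 of 12 was higher and 2 lower, in complex III 1 of 9 was lower, and of the 4 members of complex II none was called. At an unadjusted p under 0.05 complex II had 1 member, and DESeq2 called 0 in it.

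ATP5F1E, the epsilon subunit of the F1 part of ATP synthase, had 293, 339 and 277 CPM in A375-BIR with dabrafenib, against 144, 145 and 122 CPM in A375 with dabrafenib. The groups did not overlap, and the log2 difference was 1.12 ± 0.19 (adjusted p = 8.95e-06). ATP5MK, a small membrane subunit of ATP synthase, had 242, 306 and 148 CPM in A375-BIR with dabrafenib, against 138, 81.2 and 55.4 CPM in A375 with dabrafenib. Its lowest A375-BIR value was above the highest A375 value by a narrow margin, and the difference was 1.26 ± 0.25 (adjusted p = 1.53e-04). ATP5PF, ATP5IF1, ATP5MG and ATP5ME, which encode the coupling factor, the inhibitor protein and the membrane subunits g and e, were higher by 0.86, 0.80, 0.63 and 0.52 on the log2 scale. Of these, the ATP5MG groups overlapped, and the call of ATP5PF was lost without the second A375 dabrafenib library (lowest value over the libraries left out 0.60). DESeq2 lost the call of either ATP5MG or ATP5ME and kept the other complex V calls. The values of ATP5MG and ATP5ME over libraries left out are not given.

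In complex I, NDUFB8, an accessory subunit of the membrane arm, had 111, 146 and 81.4 CPM in A375-BIR with dabrafenib, against 56.8, 43.9 and 38.8 CPM in A375 with dabrafenib. It was higher in A375-BIR by 1.25 ± 0.27 (adjusted p = 3.66e-04). NDUFS6, an accessory subunit of the peripheral arm, had 487, 385 and 456 CPM in A375-BIR with dabrafenib, against 258, 255 and 216 CPM in A375 with dabrafenib. It was higher by 0.85 ± 0.18 (adjusted p = 1.97e-04), and neither gene overlapped between the lines. NDUFB6, NDUFB5, NDUFB1 and NDUFS5 were called higher by 1.29, 0.93, 0.77 and 0.61. The values of NDUFS5 over libraries left out are not given. The calls of NDUFB6, NDUFB5 and NDUFB1 were each lost on leaving out 3 or 4 of the libraries in turn. NDUFB6, with 17, 25 and 6 counts in A375-BIR with dabrafenib against 7, 3 and 1 counts in A375 with dabrafenib, then ranged over 0.69 to 1.91, NDUFB5 over 0.70 to 1.55 and NDUFB1 over 0.63 to 1.13.

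Among the called members that were lower, NDUFS3, a core subunit of the peripheral arm of complex I, was lower in A375-BIR at -0.70 ± 0.22 (adjusted p = 0.00877). NDUFB4, an accessory subunit of the membrane arm, had 126, 105 and 40.7 CPM in A375-BIR with dabrafenib, against 217, 228 and 150 CPM in A375 with dabrafenib. The groups were apart and the difference was -1.07 ± 0.23 (adjusted p = 3.60e-04). COX6A1, the widely expressed form of subunit 6A of complex IV, had 162, 175 and 112 CPM in A375-BIR with dabrafenib, against 233, 259 and 344 CPM in A375 with dabrafenib. It was lower at -0.82 ± 0.19 (adjusted p = 5.34e-04). NDUFA6, UQCR10, COX5B and NDUFA5 were also called lower, at -0.82, -0.75, -0.69 and -0.64, and COX6B1 of complex IV was higher at 0.64. The calls of NDUFA6 and COX5B were lost without the first A375 dabrafenib library (weakest values -0.61 and -0.42), that of COX6B1 without the first A375-BIR dabrafenib library (0.46) and that of UQCR10 without either (-0.60).

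**Figure D3:**
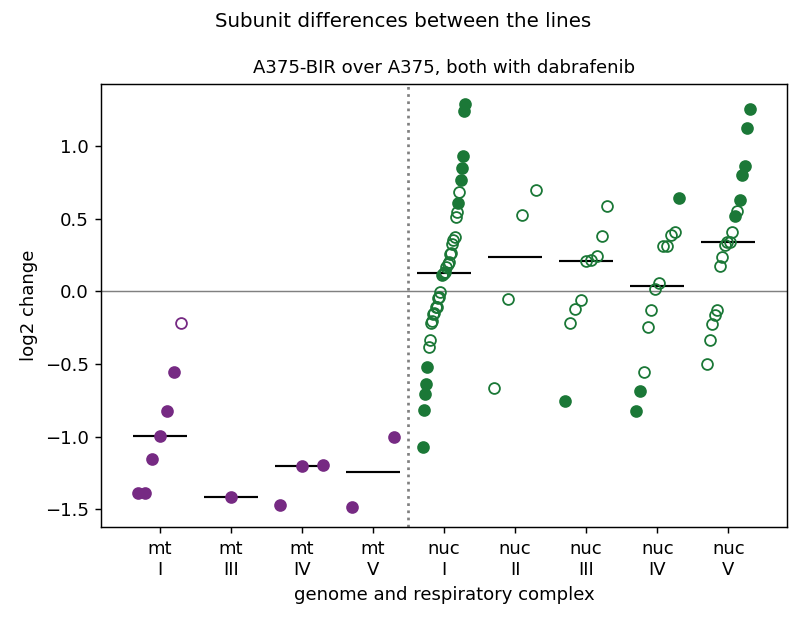
Fitted log2 difference, A375-BIR over A375 with dabrafenib, of each tested subunit by genome (mt, mitochondrially encoded; nuc, nuclear-encoded) and complex. Filled points were called at an adjusted p under 0.05, and lines are medians. The mitochondrially encoded points lie below 0 in complexes I, III, IV and V, while nuclear-encoded points lie on both sides.

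Promoters are shown for 3 of the called nuclear-encoded members, with the letters of 3 motifs of factors known to bind such promoters: NRF1 (GCGC and TGCGC with any 1 base between them), ETS factors (CCGGAAG) and YY1 (AAGATGG followed directly by CGG), searched on both strands. Each runs from 250 bases before to 50 after the start of the gene on its own strand (RefSeq, GRCh38.p14), and capitals mark motif matches. ATP5F1E and ATP5MK were higher and NDUFB4 lower in A375-BIR with dabrafenib.
ATP5F1E (chr20:59032286-59032585, minus strand): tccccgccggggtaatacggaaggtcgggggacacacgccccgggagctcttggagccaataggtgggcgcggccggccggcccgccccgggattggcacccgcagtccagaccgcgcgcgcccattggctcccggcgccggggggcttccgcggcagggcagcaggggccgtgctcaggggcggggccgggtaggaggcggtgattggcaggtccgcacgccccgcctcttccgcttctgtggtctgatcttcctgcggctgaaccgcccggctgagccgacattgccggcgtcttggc
ATP5MK (chr10:103396426-103396725, minus strand): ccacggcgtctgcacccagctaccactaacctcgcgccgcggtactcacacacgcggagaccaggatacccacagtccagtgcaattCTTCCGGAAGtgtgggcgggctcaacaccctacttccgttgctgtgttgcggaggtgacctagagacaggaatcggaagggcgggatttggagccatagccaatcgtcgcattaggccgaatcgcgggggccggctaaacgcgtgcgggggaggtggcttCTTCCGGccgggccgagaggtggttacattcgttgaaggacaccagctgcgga
NDUFB4 (chr3:120596086-120596385, plus strand): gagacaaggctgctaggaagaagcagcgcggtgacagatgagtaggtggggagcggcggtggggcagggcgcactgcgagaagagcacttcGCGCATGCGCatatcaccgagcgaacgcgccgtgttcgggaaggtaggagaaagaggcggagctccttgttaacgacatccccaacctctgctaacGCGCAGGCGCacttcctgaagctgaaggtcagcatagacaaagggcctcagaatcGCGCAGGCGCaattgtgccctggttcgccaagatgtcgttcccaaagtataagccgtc
The ATP5MK window held 3 ETS matches, a pair of them overlapping on opposite strands, the NDUFB4 window held 3 NRF1 matches, and the ATP5F1E window held none of the 3 motifs. Matches of different motifs did not overlap in these windows. Promoters were found for 71 of the 91 nuclear-encoded members, 84 windows in all. The NRF1 letters were in 20.2% of the 84 windows, beside 5.78% of all 35116 windows in the table. The ETS letters were in 26.2% beside 10.3%, and the YY1 letters in 10.7% beside 1.202%. Of the 13 windows of members called higher in A375-BIR with dabrafenib, 6 held the ETS letters, and of the 9 windows of members called lower, 3 did. The NRF1 letters were in 1 of the 13 and 2 of the 9, and the YY1 letters in 3 and 1. The window of COX6A1, a member called lower, is not printed and held 1 ETS match. These matches are descriptions of the letters alone.

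In A375-BIR, 48 h of dabrafenib moved few of the members past the test. None of the 13 mitochondrially encoded members and 1 of the 80 nuclear-encoded members tested were called, against 2.46% of all genes (1.36% higher and 1.1% lower). At an unadjusted p under 0.05 there were 0 mitochondrially encoded members, and DESeq2 also called 0. The median log2 change was 0.22 for mitochondrially encoded members and -0.20 for nuclear-encoded members, beside 0.02 for all genes. Without the third A375-BIR dabrafenib library these medians were 0.02 and -0.05.

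The mitochondrially encoded changes ran from -0.24 for MT-ND4L to 0.44 for MT-ND3, all with overlapping groups. MT-ND4L had 613, 571 and 914 CPM in A375-BIR with dabrafenib, against 728, 872 and 862 CPM in A375-BIR with DMSO. MT-ND3 had 2754, 3023 and 4589 CPM with dabrafenib, against 2231, 2784 and 2629 CPM with DMSO. Its change of 0.44 ± 0.22 was not called (adjusted p = 0.365), although MT-ND3 lay higher with dabrafenib than with DMSO except where its first dabrafenib library met the second DMSO library.

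ATP5F1E was the single member called. It had 293, 339 and 277 CPM in A375-BIR with dabrafenib, against 419, 437 and 534 CPM in A375-BIR with DMSO. The groups were apart and the log2 change was -0.60 ± 0.16 (adjusted p = 0.0333). The call was lost by DESeq2 and on leaving out any of 6 libraries, among them each A375-BIR DMSO library, with values of -0.69 to -0.50. Of the 80 nuclear-encoded members, 15 had an unadjusted p under 0.05, beside 14.2% of all genes.

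In 14 nuclear-encoded members each dabrafenib library of A375-BIR lay below each DMSO library, beside 8.91% of all genes, and in 1, COX7A2L, each lay above, beside 9.07% of all genes. COX7A2L, which takes part in joining complexes III and IV, changed by 0.69 ± 0.23 (adjusted p = 0.0965). It had 61.8, 114 and 89.1 CPM in A375-BIR with dabrafenib, against 50.8, 61.5 and 43.3 CPM with DMSO, apart by a narrow margin. COX7C, a small subunit of complex IV, had 538, 489 and 272 CPM in A375-BIR with dabrafenib, against 622, 552 and 792 CPM in A375-BIR with DMSO. Its change was -0.57 ± 0.20 (adjusted p = 0.128), and neither gene was called. Summed over complex I, nuclear-encoded members averaged 3347 ± 473 CPM with dabrafenib and 3939 ± 420 CPM with DMSO in A375-BIR. Summed over complex V, they averaged 3329 ± 675 CPM with dabrafenib and 4060 ± 499 CPM with DMSO in A375-BIR (SD, n = 3 each), both sums given no test.

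In A375, the dabrafenib libraries were compared with the single DMSO library, which carries another stamp. The mitochondrially encoded members had a median log2 change of -0.25 and the nuclear-encoded members one of -0.70, beside 0.00 for all genes. Of the 13 mitochondrially encoded members, 1 was called higher and 3 lower, and of the 80 nuclear-encoded members 8 were called higher and 40 lower. The background was 17.9% of all genes higher and 20.7% lower. Without the composition factor the median of all genes moved to 0.26, the called genes that were higher went to 63.2% of all calls, beside 46.4% with it, and the nuclear-encoded median was -0.43.

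MT-CO3 was called lower in A375 with dabrafenib, at 9694, 9708 and 13905 CPM, against 27037 CPM in A375 with DMSO. Its log2 change was -1.29 ± 0.30 (adjusted p = 8.54e-04). MT-ND3 and MT-CO2 were called lower at -0.87 ± 0.30 and -0.76 ± 0.29 (adjusted p = 0.0188 and 0.0370). These calls were less firm: that of MT-ND3 was lost without the first or the second A375 dabrafenib library (weakest value -0.75) and that of MT-CO2 without any of 5 libraries (-0.66). MT-ND6 went the other way, at 616, 639 and 1131 CPM in A375 with dabrafenib, against 311 CPM in A375 with DMSO. Its change was 1.32 ± 0.35 (adjusted p = 0.00453).

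Among nuclear-encoded members ATP5MC1 had the largest fitted fall. ATP5MC1, ATP5MC2 and ATP5MC3 encode the same mature c subunit of the ATP synthase rotor. ATP5MC1 had 73.0, 57.1 and 38.8 CPM in A375 with dabrafenib, against 501 CPM in A375 with DMSO. Its log2 change was -3.06 ± 0.24 (adjusted p = 1.60e-12), while ATP5MC2 changed by 0.09 ± 0.25 and ATP5MC3 by 0.12 ± 0.29, neither called. The 6 A375-BIR libraries had 56.0 to 92.2 CPM of ATP5MC1, of which 4 lay above each A375 dabrafenib library and all lay below the A375 DMSO library.

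ATP5F1E, UQCR11, NDUFB10 and ATP5F1D followed, at -2.40, -2.51, -2.44 and -2.33. UQCR11 is a small subunit of complex III, NDUFB10 an accessory subunit of complex I and ATP5F1D the delta subunit of F1. NDUFB8, UQCRC1, NDUFA11, COX4I1 and NDUFB11 were lower at -2.05, -2.02, -1.96, -1.94 and -1.89. By complex, 21 of 37 tested nuclear-encoded members of complex I, 4 of 9 of complex III, 6 of 12 of complex IV and 9 of 18 of complex V were called lower. Of the 4 of complex II, 1 was called higher.

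SDHB, the iron-sulphur subunit of complex II, had 75.0, 50.5 and 72.1 CPM in A375 with dabrafenib, against 7.41 CPM (12 counts) in A375 with DMSO. It was higher by 3.10 ± 0.46 (adjusted p = 1.93e-06). NDUFC1, a small accessory subunit of complex I, had 99.4, 129 and 83.2 CPM in A375 with dabrafenib, against 17.9 CPM in A375 with DMSO, a change of 2.58 ± 0.35 (adjusted p = 3.77e-07). NDUFA1, COX6A1, NDUFB4, COX7A2L and NDUFA5 were called higher by 1.44, 1.30, 1.01, 0.96 and 0.73. The COX7A2L call was lost by DESeq2 (adjusted p = 0.0904), with the replicate block (0.73, adjusted p = 0.104) and without the second A375 dabrafenib library (0.82, adjusted p = 0.112). NDUFB3 had 22 counts in A375 with dabrafenib and 1 count in A375 with DMSO, a ratio of 31.5 per scaled total (exact 95% counting interval 5.10 to 1302). SDHD had 9 counts and 2 counts, a ratio of 6.45 (1.34 to 61.4). These intervals cover counting error only.

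**Figure D4:**
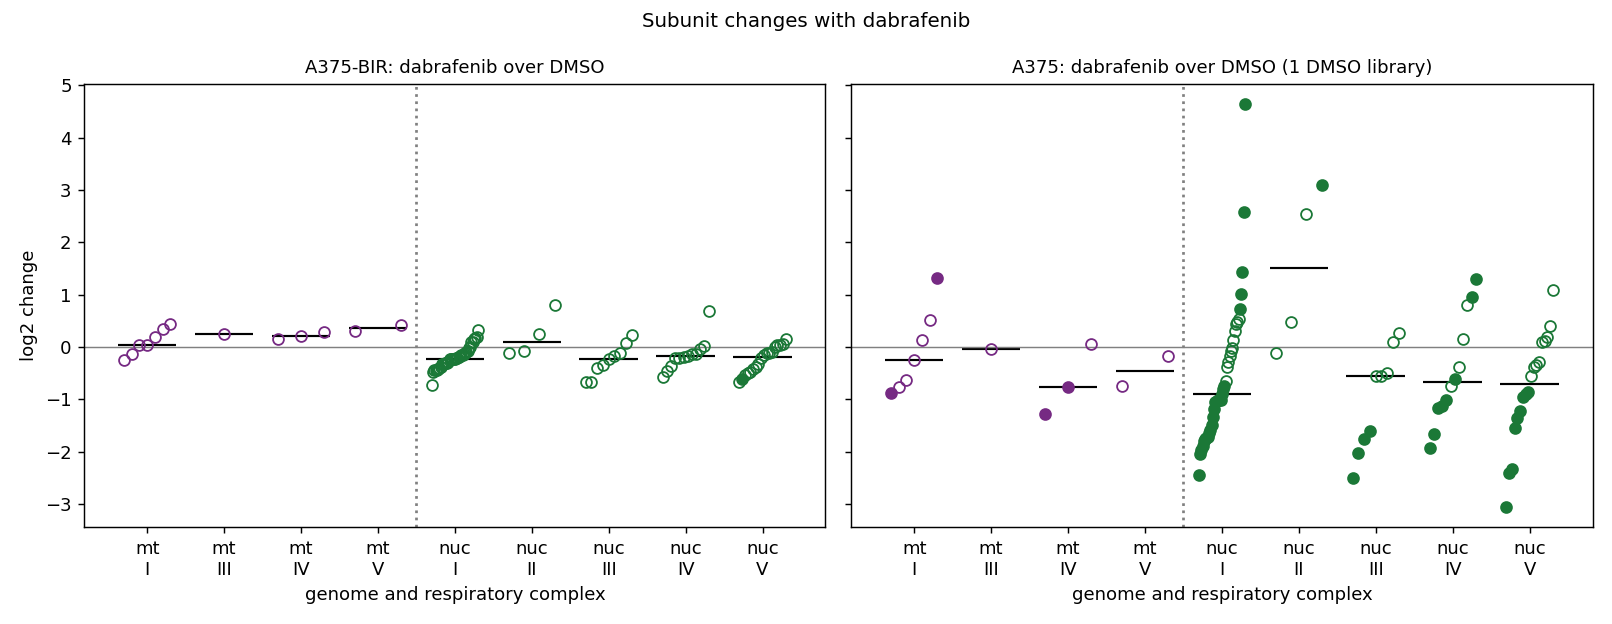
Fitted log2 change with dabrafenib of each tested subunit in A375-BIR (left) and A375 (right), by genome (mt, mitochondrially encoded; nuc, nuclear-encoded) and complex. Filled points were called at an adjusted p under 0.05, and lines are medians. A single filled point stands in A375-BIR (ATP5F1E), against 48 nuclear-encoded and 4 mitochondrially encoded ones in A375, where the DMSO group is 1 library.

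In DMSO, A375-BIR was set against the same single A375 library. Of the mitochondrially encoded members, 11 were called lower and 1, MT-ND6, higher, and of the nuclear-encoded members 35 were called lower and 14 higher. The background was 26.7% of all genes lower and 25.1% higher, 51.7% in all. The medians were -1.60 and -0.34, beside 0.01 for all genes. Without the composition factor the median of all genes moved to 0.40 and that of the nuclear-encoded members to 0.06, with 22 called lower and 24 higher. All genes called were then 68.9% higher, beside 48.5% with the factor.

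MT-CO3 had 3572, 4097 and 4227 CPM in A375-BIR with DMSO, against 27037 CPM in A375 with DMSO. Its log2 difference was -2.77 ± 0.29 (adjusted p = 5.87e-10). MT-ATP6, MT-CO2, MT-ND3 and MT-ND4 differed by -2.53, -2.45, -2.31 and -2.20. MT-ND6 had 599, 712 and 623 CPM in A375-BIR with DMSO, against 311 CPM in A375 with DMSO, a difference of 1.05 ± 0.34 (adjusted p = 0.0127). MT-ND1 was not called, at -0.24 with 2256, 2586 and 2727 CPM in A375-BIR with DMSO against 2969 CPM in A375 with DMSO. Among nuclear-encoded members ATP5MC1 was lower at -2.50 ± 0.20 (adjusted p = 1.13e-12) and SDHB higher by 2.50 ± 0.45 (adjusted p = 1.67e-05), the members that also stood out in the A375 response, which shares the DMSO library.

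Where that library lay was counted directly, in CPM after TMM scaling. The scaling factor was 0.81 for that library, against 0.908 to 1.10 in the other 9, and positions without it were not counted. The A375 DMSO value was above the other 9 libraries for 7 of 13 mitochondrially encoded members and 39 of 80 nuclear-encoded members, beside 23.1% of all genes. It was below the other 9 for 1 mitochondrially encoded member, MT-ND6, and 8 nuclear-encoded members, beside 18.1% of all genes. The 8 were NDUFA1, NDUFB3, NDUFC1, SDHB, SDHD, COX6A1, COX6C and COX7A2L. The A375 DMSO file had 52.5% of its reads with more than 1 alignment, against 39.95% to 49.4% in the other 9 used, and its part in these positions was not tested.

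The difference between the responses, A375-BIR minus A375, was called higher for 3 mitochondrially encoded members and lower for 1, and higher for 25 and lower for 7 nuclear-encoded members. The background was 12.7% of all genes higher and 9.85% lower. The medians were 0.39 and 0.42, beside 0.04 for all genes, and without the composition factor the median of all genes moved to -0.24 and that of the nuclear-encoded members to 0.14. Positive values mean that the change in A375-BIR lay above that in A375. MT-CO3 differed by 1.57 ± 0.38 (adjusted p = 0.00287) and ATP5MC1 by 2.67 ± 0.32 (adjusted p = 1.44e-07). MT-ND6 differed by -1.27 ± 0.41 (adjusted p = 0.0293), a call lost on leaving out any of 3 libraries (-0.97 at the weakest), and SDHB by -3.17 ± 0.54 (adjusted p = 6.32e-05).

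The mitochondrially encoded genes also stood in unlike proportions in the lines, given as a description with no test. MT-ND6 made up 1.23%, 0.978% and 1.37% of the mitochondrially encoded counts in A375-BIR with dabrafenib, and 1.41%, 1.39% and 1.21% in A375-BIR with DMSO. It made up 0.576%, 0.570% and 0.682% in A375 with dabrafenib, and 0.167% in A375 with DMSO. The 6 A375-BIR libraries were above the 4 A375 libraries.

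MT-ND1 and MT-ND2, the first members by position on the plus strand, were placed likewise. MT-ND1 took 4.24% to 6.48% in A375-BIR with dabrafenib and 5.04% to 5.31% in A375-BIR with DMSO, against 3.28% to 3.39% in A375 with dabrafenib and 1.59% in A375 with DMSO. MT-ND2 took 12.7% to 14.4% and 12.5% to 12.6% in the A375-BIR groups, against 10.2% to 10.999% in A375 with dabrafenib and 6.64% in A375 with DMSO. MT-CO3 took 7.99% to 9.40% in A375-BIR with dabrafenib, 7.98% to 8.40% in A375-BIR with DMSO and 8.38% to 9.06% in A375 with dabrafenib, but 14.5% in A375 with DMSO. Thus MT-CO3 separated the A375 DMSO library from the rest, not the lines.

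In the second A375-BIR dabrafenib library MT-ND5 took 6.05% of the mitochondrially encoded counts, against 9.89% and 8.54% in the other 2 of its group, and MT-ATP6 took 7.26%, against 10.3% and 9.15%. MT-ND1 took its highest share there, 6.48%. These shares sum to a whole within a library, so a gain of one gene lowers the others.

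**Figure D5:**
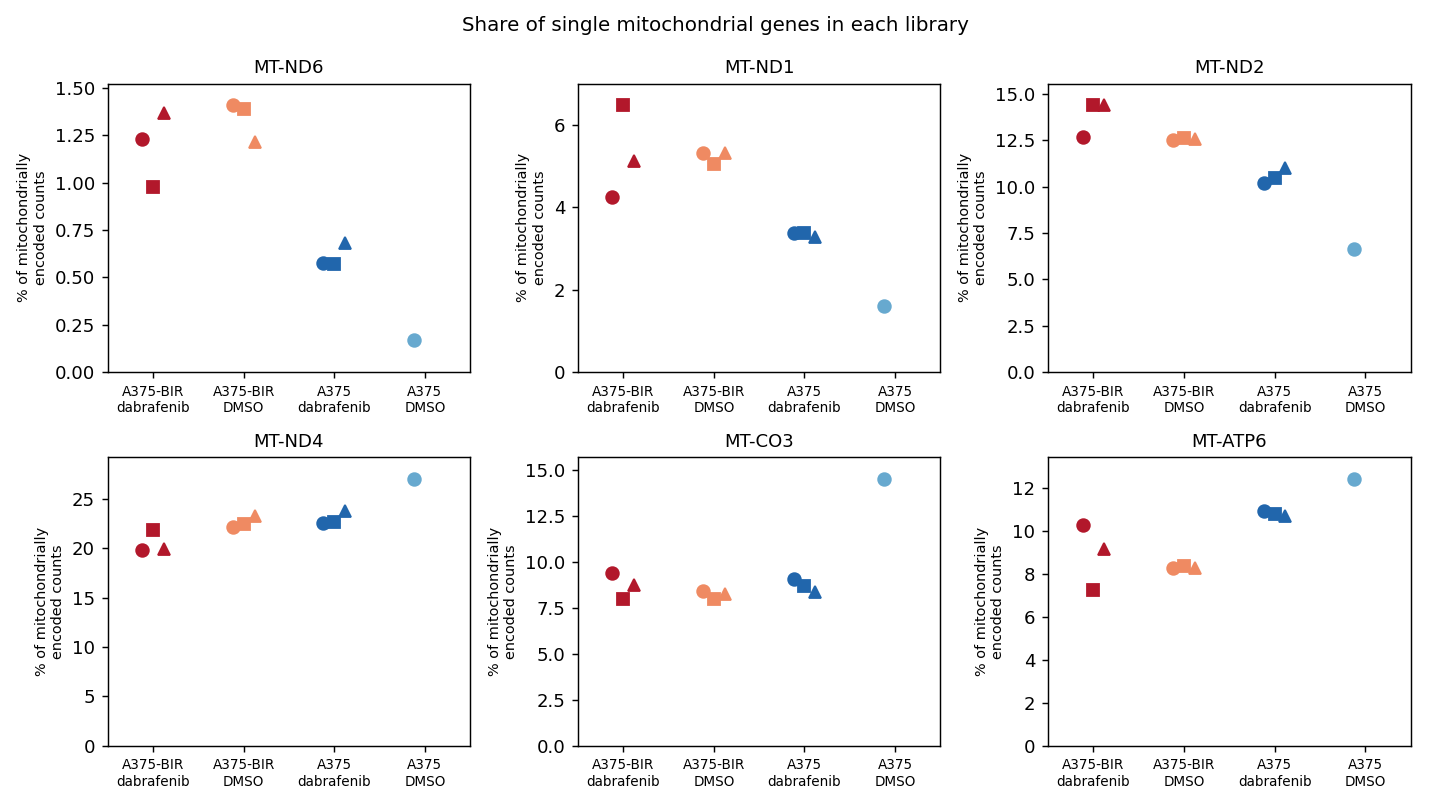
Share of 6 mitochondrially encoded genes among all mitochondrially encoded counts, in percent, per library and group. Circles, squares and triangles are replicates 1, 2 and 3. MT-ND6, MT-ND1 and MT-ND2 lie higher in each A375-BIR library than in each A375 library, and MT-CO3 stands at 14.5% in the A375 DMSO library.

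Isoforms that are known from muscle, testis or other tissues were close to absent. COX4I2, COX6A2 and COX7A1, the lung or muscle forms of complex IV subunits, had no count in the 10 libraries, and neither did the readthrough genes NDUFC2-KCTD14 and ATP5MF-PTCD1. COX8C had 1 count, NDUFA4L2 4, UQCRHL 8, COX6B2 22, COX7B2 27 and ATP5MGL 65 counts over the 10 libraries. A count of 0 allows up to 15.1 CPM in the shallowest library, by 3 counts of the raw total. COX7B2, a form known from testis, had 10, 2 and 2 counts in A375-BIR with dabrafenib and 4, 6 and 3 in A375-BIR with DMSO, and none in the 4 A375 libraries. UQCRHL and ATP5MGL are near-copies of UQCRH and ATP5MG, so their counts are uncertain.

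The most counted nuclear-encoded member of each complex, by mean CPM over the 10 libraries and not divided by length, was also read in each complex. SDHC, a membrane anchor of complex II, had 74.0, 105 and 68.7 CPM in A375-BIR with dabrafenib, against 83.1, 90.0 and 83.2 CPM in A375 with dabrafenib. UQCRB, of complex III, had 534, 771 and 369 CPM in A375-BIR with dabrafenib, against 491, 498 and 460 CPM in A375 with dabrafenib. Both overlapped between the lines, as did COX7C of complex IV at 0.06 ± 0.21 (adjusted p = 0.846). NDUFS6 of complex I and ATP5MG of complex V were among the called members given above.

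Genes that serve the complexes without being subunits were read from lists chosen with earlier results of these data known. Of 44 tested assembly factors, 9 were called higher and 5 lower in A375-BIR than in A375 with dabrafenib (median 0.13). TMEM126B, COX16 and COX15 were higher by 1.99, 1.62 and 1.26, and SCO2, NDUFAF5 and COX18 lower at -1.65, -1.503 and -1.48. In the A375-BIR response TIMMDC1, which helps to build the membrane arm of complex I, was the only one of the 44 called, at 0.63 ± 0.17 (adjusted p = 0.0300). The call was lost by DESeq2 (adjusted p = 0.0688) and on leaving out any of 6 libraries, with values of 0.54 to 0.77. Between the lines the COX16 call was lost by DESeq2 (adjusted p = 0.0569) and without any of 3 libraries (1.37 to 2.08). The calls of SCO2 and COX18 were lost without the first and the second A375 dabrafenib library, in that order (weakest values -1.29 and -1.21).

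Of 30 tested genes of mitochondrial transcription and RNA handling, with dabrafenib 6 were called higher and 4 lower in A375-BIR than in A375 (median 0.27). SLIRP, whose product with LRPPRC stabilises mitochondrial mRNAs, was higher by 1.74 ± 0.23 (adjusted p = 9.72e-08). TFB1M, SSBP1 and TFAM, which binds and compacts mitochondrial DNA, were higher by 1.49, 1.04 and 0.87, and POLG2, FASTKD1 and POLG lower at -1.84, -1.57 and -0.80. The POLG call was lost by DESeq2 (adjusted p = 0.0986) and without any of 3 libraries (weakest value -0.60). Of 75 tested mitochondrial ribosomal proteins, 19 were higher and 5 lower (median 0.15), with MRPL1 at 3.22 and MRPL27 at -1.25.

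Of 14 tested regulators of mitochondrial biogenesis, 2 were higher and 3 lower. PPARGC1A, a coactivator of such genes, was lower at -2.31 ± 0.67 (adjusted p = 0.00495), and PRKAA2, a catalytic subunit of AMP-activated kinase, higher by 1.82 ± 0.33 (adjusted p = 2.83e-05). Of 23 genes of the citric acid cycle and pyruvate entry, 4 were higher and 4 lower, with SUCLG2 at 1.73 and PDK4 at -2.37. Of 17 carriers, 2 were higher and 4 lower, with SLC25A5 at 1.07 and SLC25A4 at -1.25, both ADP/ATP carriers. The calls of PPARGC1A and SLC25A4 were lost without the second and the first A375 dabrafenib library, in that order (weakest values over libraries left out -2.004 and -0.93). In the A375-BIR response edgeR called none of the genes of these 5 lists and DESeq2 also 0, and at an unadjusted p under 0.05 they had 2, 9, 2, 3 and 0 genes, beside 14.2% of all genes. The shares called over all genes are those given for each comparison above.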

How the data were processed

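The deposited files hold counts per gene, made by the authors from single-end 3′ tag libraries (QuantSeq FWD, per the labels' protocols). The submitters' processing notes name hg38. Which aligner, counter and annotation were used, and with which strandedness, is not given in the sources used here. The files' last rows count reads off genes: 28.6% to 30.9% of reads had no feature in 9 of the 10 libraries used and 20.1% in A375 DMSO, and 39.95% to 52.5% aligned more than once and were not counted to genes. Those rows stayed out of totals and tests.

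Gene names came from GENCODE 29 and RefSeq tables. The members and lists were chosen with earlier results of these data known. edgeR 4.0.16 (R 4.3.3) fitted 1 quasi-likelihood model of the 4 groups to the 10 libraries, with TMM scaling, after filterByExpr at a minimum count of 10. The residual degrees of freedom were 6, and the single A375 DMSO library is assumed to vary like the other groups. Fold changes carry edgeR's standard errors, and p-values were adjusted by Benjamini-Hochberg over 10236 genes. DESeq2 1.42.0 was an alternative. The procedure was tested on simulated data. Levels are CPM and are not divided by length.

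Named were each mitochondrially encoded member, the highest of each complex by CPM and the tissue isoforms. Per comparison the called nuclear-encoded members were named, at most 10 in each direction by size. Of the other lists at most 3 called genes in each direction were named, not always the largest. NDUFS5, ATP5ME and TFAM were named beyond these limits. COX7A2L in A375-BIR, the ATP5MC genes beside ATP5MC1, and SDHD were added after their values were seen. DMAC2L, named ATP5S in GENCODE 29, was left out. The values of 1 called member are not reported here. Of the listed genes FASTKD4 and the mitochondrial rRNAs were not matched. Replicate libraries differed by more than sampling noise in each pair (chi-square per degree of freedom of at least 1.09), and intervals cover counting error only.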

Additional observations from a re-analysis of the deposited data

Results flagged for a closer look

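The change with dabrafenib differed between the lines, by the interaction term of the edgeR fit at an adjusted p under 0.05, for 36 members, of which the mitochondrially encoded and the largest nuclear-encoded ones are given. Values are log2 changes in A375-BIR minus those in A375. Each rests on the single A375 DMSO library, which carries another stamp. Among mitochondrially encoded members the difference was 1.31 for MT-ND3, 0.98 for MT-CO2, 1.57 for MT-CO3 and -1.27 for MT-ND6. The MT-CO2 call was lost on leaving out any of 5 libraries and the MT-ND6 call on leaving out any of 3.

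In complex V, ATP5MC1, ATP5F1D and ATP5F1E differed by 2.67, 2.37 and 1.79. In complex III, UQCR11, CYC1 and UQCRC1 differed by 1.84, 1.84 and 1.67. In complex I, NDUFB10, NDUFA11, NDUFB8 and NDUFB9 differed by 1.97, 1.73, 1.72 and 1.69. In the other direction, NDUFB3 differed by -4.48 (1 count in A375 DMSO, so this fitted value is no bound), SDHB by -3.17, NDUFC1 by -2.38 and NDUFA1 by -1.68. COX6A1, NDUFB4 and NDUFA5 differed by -1.42, -1.33 and -0.83, and the NDUFA5 call was lost on leaving out any of 4 libraries.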

How the results depend on the processing

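Depth limits low nuclear-encoded members, of which 11 could not be tested, and comparisons with A375 DMSO rest on 1 library. SDHB had 12 counts in that library. Its calls between the lines in DMSO and in the difference were lost with libraries thinned to 198690 counts (log2 values 2.42 and -2.95). With libraries thinned to 198690 counts, nuclear-encoded calls in the A375 response fell to 4 higher and 24 lower, between the lines in DMSO to 6 and 20, in the difference between responses to 9 and 4, and between the lines with dabrafenib to 7 higher; mitochondrially encoded calls were 1 lower, 0 higher and 0 lower in the first 3 of these, in that order. In the A375-BIR response the single nuclear-encoded call became 0 by DESeq2, with the 2 groups alone or when thinned, 2 with scaling by nuclear genes, 3 with no filter, and 0 to 4 over libraries left out in turn, when up to 1 was higher. Without the composition factor, mitochondrially encoded calls in the A375 response were 2 higher and 1 lower, and the nuclear-encoded median was -0.43. Between the lines in DMSO the medians were then -1.20 and 0.058, with 24 nuclear-encoded calls higher and 22 lower, and the nuclear-encoded median of the difference was 0.14. All genes had medians of 0.26 (A375 response), 0.40 (lines in DMSO), 0.16 (lines with dabrafenib) and -0.24 (difference), and of all genes called in the difference 34.3% were higher, against 56.4% with the factor. Mitochondrially encoded calls lower in the A375 response were 6 with no filter or without replicate 3 of both dabrafenib groups (chosen after seeing the data), 1 under a minimum mean count of 50, and 1 to 6 over libraries left out. Nuclear-encoded calls higher between the lines in DMSO were 7 by DESeq2 and 5 under a minimum mean count of 50. With that minimum those between the lines with dabrafenib were 7 higher, and over libraries left out 7 to 20 were higher and 4 to 10 lower. Without replicate 3 of both dabrafenib groups the difference had 5 mitochondrially encoded calls higher, and over libraries left out it had 0 to 1 lower and a nuclear-encoded median of 0.33 to 0.67.

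Whether replicate numbers pair the samples was not settled, since weak correlations cannot exclude it. Same-numbered deviations correlated at -0.12 to 0.11, 1 of 9 pairs was over 0.1 and 3 of 9 correlated best with their own number. The pair over 0.1 was replicate 3 of both dabrafenib groups (0.11), the libraries with low totals and high MALAT1. With the replicate as a block, nuclear-encoded calls lower in the A375-BIR response were 2, mitochondrially encoded calls lower in the A375 response 6, and those higher in the difference 5; MT-ND6 turned to -0.025 in the A375-BIR response, and MT-ND2 to -0.17 and MT-CO1 to -0.15 in the A375 response.

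The other turns of sign were in uncalled genes. In the A375-BIR response without replicate 3 of both dabrafenib groups MT-ND1, MT-ND4, MT-ND6 and MT-CO1 were -0.0156, -0.18, -0.32 and -0.049. Over libraries left out MT-CO1 ran from -0.030 to 0.30, MT-ND4 from -0.16 to 0.17, MT-ND5 from -0.41 to 0.11 and MT-ND6 from -0.30 to 0.25. In the A375 response MT-CYB was 0.20 without the composition factor, 0.094 under a minimum mean count of 50, 0.0567 when thinned and -0.29 to 0.088 over libraries left out. MT-ATP8 was 0.0574 without the composition factor. MT-ND2 was -0.13 without both replicate 3 libraries and -0.12 to 0.28 over libraries left out. MT-CO1 was -0.025 with no filter, -0.0797 without both replicate 3 libraries and -0.077 to 0.14 over libraries left out. Between the lines in DMSO MT-ND1 was 0.16 without the composition factor. In the difference MT-ND2 was -0.074 without the factor and -0.073 to 0.46 over libraries left out. MT-ND5 was -0.16 without the factor, -0.0332 without both replicate 3 libraries and -0.16 to 0.35 over libraries left out. MT-CO1 was -0.18 without the factor, -0.00893 under a minimum mean count of 50, -0.10 when thinned and -0.094 to 0.24 over libraries left out. Between the lines with dabrafenib MT-ND6 ran from -0.56 to 0.084 over libraries left out. The cause of these changes was not tested.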
